A study of Homo sapiens with 6 samples.

Results

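Nucleotide excision repair removes bulky lesions from DNA, among them the intrastrand crosslinks that platinum drugs leave, by cutting out a short stretch of the damaged strand and filling the gap. Lesions anywhere in the genome are found by XPC with its partners and by the DDB1-DDB2 complex, and lesions that stall RNA polymerase are found by the Cockayne syndrome proteins. Both routes hand over to TFIIH, which opens the DNA, to XPA and RPA, which check and hold the open stretch, to the nucleases ERCC1-ERCC4 and ERCC5, and to DNA ligases. The genes described here are 31 members of this pathway, taken by symbol from a list of gene names. Each of the 31 matched 1 row of the 58735 in the count table, and 31 of 31 were among the 18751 genes that passed the filter on low counts.

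RNA was sequenced from 3 cultures of PANC1OR and 3 cultures of PANC1. PANC1 is an established line from a human carcinoma of the pancreatic duct, and PANC1OR is a subline of it that the submitters grew through passages in rising amounts of oxaliplatin until it proliferated stably without the drug. The PANC1 cultures are labelled as untreated, and the labels do not say whether oxaliplatin was in the PANC1OR medium at harvest. Both lines grew in DMEM with serum. PANC1OR is 1 subline, so the spread between its cultures does not cover the spread between independently derived resistant lines. In bulk RNA, a change in the share of cells that express a gene and a change in the level per cell cannot be told apart.

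Libraries held 12623721 to 26394388 reads in PANC1OR and 10199268 to 15875431 reads in PANC1. Levels are CPM, read counts scaled to a common library total after TMM, a trimmed-mean normalisation. Means are given with the SD over 3 libraries. Of the duct markers, KRT8 and KRT18 were at 240.9 CPM or more in each library, while KRT7 was at 3.39 CPM or less, and KRT19 fell to 15.7 to 36.9 CPM in PANC1OR, against 243 to 465 CPM in PANC1. SOX9 averaged 127 ± 24.3 CPM in PANC1OR and 202 ± 6.15 CPM in PANC1, and EPCAM 8.13 ± 2.05 and 14.1 ± 1.69 CPM. Both were lower in each PANC1OR library, while MUC1 overlapped between the lines. The fibroblast markers COL1A2, DCN and LUM were under 0.2 CPM in each library. COL1A1 was at 109 to 291 CPM in PANC1OR and 80.4 to 95.3 CPM in PANC1. PDGFRB was at 0.94 to 1.24 CPM in PANC1OR and 0.37 to 0.795 CPM in PANC1, so both were higher in each PANC1OR library. The leukocyte and endothelial lists summed to at most 2.31 CPM. PANC1OR replicate 3 stood apart from replicates 1 and 2 in a way that followed GC content. Among all tested genes with under 45% GC its log2 level was 0.66 below theirs by the median (a difference of -0.66), and among genes with 55% GC or more it was 0.97 above. PANC1 replicate 2 differed from replicates 1 and 3 of its line in the same direction, by -0.17 and 0.27.

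With all 6 libraries, 6 of the 31 genes passed edgeR's quasi-likelihood test at a Benjamini-Hochberg adjusted p under 0.05. RAD23B and DDB2 rose in PANC1OR, and CETN2, CUL4A, GTF2H5 and LIG3 fell. The called share, 19.4%, stood beside 17.8% of all tested genes, and it was 2 higher and 4 lower beside 10.3% and 7.50%. The median log2 fold change, PANC1OR minus PANC1, was -0.01 over the 31 genes and 0.04 over all tested genes, and the median size regardless of sign was 0.30 and 0.43. The largest of the 6 changes was smaller than the cutoffs of the series design text, an absolute log2 fold change over 2 with an adjusted p under 0.01, which 0 of the 31 genes and 6.25% of all tested genes met. Libraries of the lines did not overlap for 9 of the 31 genes, 3 with PANC1OR higher and 6 with PANC1OR lower, beside 36.5% of all tested genes, 18.9% higher and 17.6% lower.

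**Figure D1:**
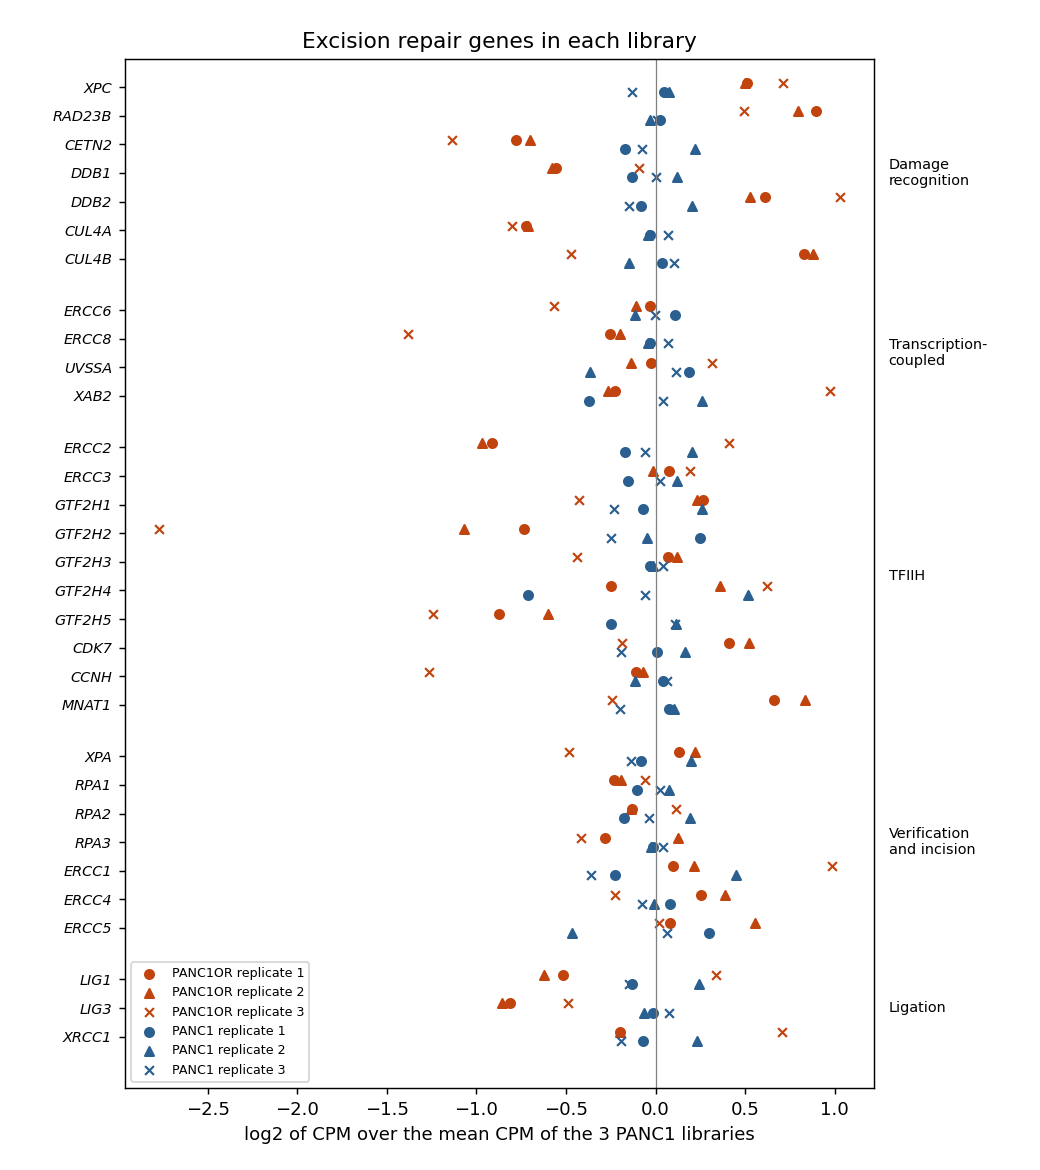
Level of each of the 31 genes in each library, as log2 of its CPM over the mean CPM of the 3 PANC1 libraries, with genes grouped by their step in the pathway. Orange symbols are PANC1OR and blue symbols PANC1, and the orange crosses of PANC1OR replicate 3 lie to the left of the other orange symbols for genes such as CUL4B and GTF2H2 and to the right for ERCC2 and XAB2.

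Without PANC1OR replicate 3, 14 of the 31 genes passed, 6 higher and 8 lower, beside 44.1% of all genes tested in that fit, 22.1% higher and 22.0% lower. When each library's trend with GC content was taken out as an offset (GC offsets below), 13 passed, 5 higher and 8 lower, beside 40.0% of all tested genes, 20.4% higher and 19.6% lower. The 6 genes called with all libraries were among those called in both fits, in the same direction. In the fits that left out one of the other 5 libraries, 0 or 1 of the 31 genes passed, beside 9.31% to 12.5% of all genes tested in those fits. DESeq2 on all 6 libraries called 3 higher and 5 lower, beside 21.7% of all tested genes, 12.1% higher and 9.56% lower. The likelihood ratio test called 2 higher and 5 lower, beside 20.5%, 12.0% higher and 8.49% lower. When the libraries with the GC deviation in each line, PANC1OR replicate 3 and PANC1 replicate 2, were both dropped, 9 were higher and 10 lower, beside 58.5%, 29.0% higher and 29.5% lower.

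Damage recognition had 4 of its 7 genes called, 2 higher and 2 lower, beside 17.8% of all tested genes. The trimer that detects distorted DNA consists of XPC, the stabilising protein RAD23B and the calcium-binding protein CETN2. RAD23B was at 313.5, 292.3 and 237 CPM in PANC1OR replicates 1 to 3, against 171, 165 and 169 CPM in PANC1. All 3 PANC1OR libraries lay above the PANC1 ones. RAD23B (chromosome 9, 107283137 to 107332192 on GRCh38) rose 1.67-fold, or 0.74 ± 0.18 in log2 (SE, adjusted p = 0.0222). CETN2 moved the other way, at 28.1, 29.7 and 21.9 CPM in PANC1OR against 42.8, 56.0 and 45.6 CPM in PANC1. The groups did not overlap, and CETN2 (chromosome X, 152826994 to 152830757) fell to 0.552 times its PANC1 level (-0.86 ± 0.21, adjusted p = 0.0276). XPC itself was at 33.7, 33.3 and 38.7 CPM in PANC1OR against 24.5, 24.9 and 21.6 CPM in PANC1. These groups did not overlap either, but the gene did not pass with 6 libraries by the quasi-likelihood test (0.58 ± 0.19, adjusted p = 0.076). It passed as higher by DESeq2 (adjusted p = 0.0316), with GC offsets (0.00202) and without PANC1OR replicate 3 (0.49, adjusted p = 0.0125), and not by the likelihood ratio test (0.166). An antisense RNA, XPC-AS1, overlaps 30.0% of the XPC transcript and was at 2.97 to 3.48 CPM in PANC1OR and 1.46 to 2.87 CPM in PANC1.

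The other recognition arm is a ubiquitin ligase in which DDB2 binds the lesion, DDB1 is the adaptor and CUL4A or its paralog CUL4B is the scaffold. DDB2 was at 56.3, 53.1 and 75.1 CPM in PANC1OR against 34.9, 42.5 and 33.3 CPM in PANC1. Each PANC1OR library was above each PANC1 library, and DDB2 (chromosome 11, 47214465 to 47239217) rose 1.67-fold (0.74 ± 0.22), with an adjusted p of 0.0497 at the edge of the threshold. DDB1 was at 249.6, 245.9 and 344 CPM in PANC1OR against 336, 399 and 368 CPM in PANC1. PANC1OR replicates 1 and 2 were below all PANC1 libraries and replicate 3 was within their range. DDB1 did not pass the quasi-likelihood test with 6 libraries and no offsets (-0.39 ± 0.20, adjusted p = 0.232). The gene passed as lower without PANC1OR replicate 3 (-0.58, adjusted p = 0.00534) and with GC offsets (0.01). It also passed as lower with PANC1OR replicate 3 and PANC1 replicate 2 both dropped (-0.53, adjusted p = 2.5e-05).

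CUL4A was at 90.5, 91.2 and 85.7 CPM in PANC1OR against 146, 145 and 156 CPM in PANC1. It was low in all 3 PANC1OR libraries, and CUL4A (chromosome 13, 113208193 to 113267108) fell to 0.597 times its PANC1 level (-0.74 ± 0.16, adjusted p = 0.014). CUL4B was at 261, 269.5 and 106 CPM in PANC1OR against 150.2, 132 and 158 CPM in PANC1. Replicates 1 and 2 of PANC1OR were above and replicate 3 below all PANC1 libraries. CUL4B thus had a log2 fold change of 0.53 ± 0.33 and an adjusted p of 0.343 with 6 libraries, and of 0.84 and 0.000665 without PANC1OR replicate 3. Its transcript has 38.1% GC, and replicate 3 was 1.33 below the mean of replicates 1 and 2 in log2 (a deviation of -1.33). Over the recognition genes, all 7 passed without PANC1OR replicate 3 and all 7 with GC offsets, 4 higher and 3 lower each time. Of all genes tested in these fits, 44.1% and 40.0% passed.

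Among fits without 1 library, RAD23B, DDB2 and CETN2 passed only without PANC1OR replicate 3. Without PANC1OR replicate 1 or 2 or any 1 PANC1 library, the adjusted p was 0.0666 to 0.124 for RAD23B, 0.0753 to 0.22 for DDB2 and 0.0617 to 0.0974 for CETN2. CUL4A passed without PANC1OR replicate 3 and without PANC1 replicate 2 (0.0362), and had 0.0689 to 0.0904 without PANC1OR replicate 1 or 2 or PANC1 replicate 1 or 3. The sign of these 4 log2 fold changes was the same in each of the 6 fits. As the libraries of the lines did not overlap for these genes, leaving out 1 library could hardly turn it.

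The promoter windows of the 4 recognition genes that passed are shown because 2 rose and 2 fell. They run from 250 bases before to 50 bases after the transcript start, come from RefSeq (GRCh38.p14) and are written 5′ to 3′. Capitals mark GC boxes (GGGCGG) and CCAAT boxes (CCAAT), each searched on both strands.
RAD23B, chr9:107283029-107283328, plus strand: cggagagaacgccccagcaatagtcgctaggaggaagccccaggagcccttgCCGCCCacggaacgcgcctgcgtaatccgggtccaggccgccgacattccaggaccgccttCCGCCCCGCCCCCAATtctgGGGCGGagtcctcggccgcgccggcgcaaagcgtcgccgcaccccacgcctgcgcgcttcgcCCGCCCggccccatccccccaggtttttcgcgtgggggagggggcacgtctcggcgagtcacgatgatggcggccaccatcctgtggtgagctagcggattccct
DDB2, chr11:47214204-47214503, plus strand: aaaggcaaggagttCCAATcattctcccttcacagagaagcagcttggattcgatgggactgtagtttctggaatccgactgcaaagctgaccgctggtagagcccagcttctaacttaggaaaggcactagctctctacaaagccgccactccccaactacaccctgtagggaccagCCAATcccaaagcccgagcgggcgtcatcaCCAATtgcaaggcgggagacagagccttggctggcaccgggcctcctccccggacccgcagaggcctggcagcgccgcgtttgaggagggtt
CETN2, chrX:152830708-152831007, minus strand: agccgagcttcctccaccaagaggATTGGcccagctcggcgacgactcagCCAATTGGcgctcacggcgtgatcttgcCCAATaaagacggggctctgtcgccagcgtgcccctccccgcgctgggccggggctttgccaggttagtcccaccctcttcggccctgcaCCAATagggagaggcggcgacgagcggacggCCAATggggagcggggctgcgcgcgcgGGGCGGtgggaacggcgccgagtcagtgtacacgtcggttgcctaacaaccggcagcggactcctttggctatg
CUL4A, chr13:113207943-113208242, plus strand: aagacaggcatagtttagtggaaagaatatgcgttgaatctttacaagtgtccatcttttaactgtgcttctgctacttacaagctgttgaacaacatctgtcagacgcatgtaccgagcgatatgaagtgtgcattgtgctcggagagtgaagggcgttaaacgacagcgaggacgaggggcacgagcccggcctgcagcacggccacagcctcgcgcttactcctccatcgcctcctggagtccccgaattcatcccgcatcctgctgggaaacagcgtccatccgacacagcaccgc
The RAD23B window held 5 GC boxes and 1 CCAAT box, with 2 GC boxes sharing 1 base. The DDB2 window held 3 CCAAT boxes and 0 GC boxes. The CETN2 window held 6 CCAAT boxes, 2 of which share 2 bases, and 1 GC box, whereas neither motif occurred in the CUL4A window. Of the 35114 RefSeq windows of this length 45% held a GC box and 34.6% a CCAAT box, and of the 29 windows found for the 31 genes 22 and 11 did. For each member only the first listed window was taken, whereas the 35114 include every listed window, so the shares come from unlike sets. RPA2 and RPA3 had no entry. These matches describe letters in a window and say nothing of factor binding.

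Ratios of partners within a library were computed for 9 pairs of genes, chosen after the levels had been seen, and are given without a test. The lines did not overlap in 6 of the 9 ratios, and only some of these are described. They overlapped for RAD23B over XPC, ERCC4 over ERCC1 and LIG1 over LIG3. A two-sided exact permutation test of 3 against 3 libraries cannot go below 0.1. The ratio of DDB2 to DDB1 in CPM was 0.225, 0.216 and 0.218 in PANC1OR against 0.104, 0.106 and 0.0904 in PANC1. It was higher in all 3 PANC1OR libraries and close between them, replicate 3 included, where DDB2 and DDB1 deviated from replicates 1 and 2 by 0.46 and 0.48 in log2. The ratio of CUL4B to CUL4A was 2.88, 2.95 and 1.23 in PANC1OR against 1.03, 0.911 and 1.007 in PANC1. The lines did not overlap in this ratio, although replicate 3 lay nearer to PANC1 than to the other PANC1OR libraries. CETN2 over XPC was 0.834, 0.89 and 0.565 in PANC1OR against 1.75, 2.25 and 2.11 in PANC1.

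**Figure D2:**
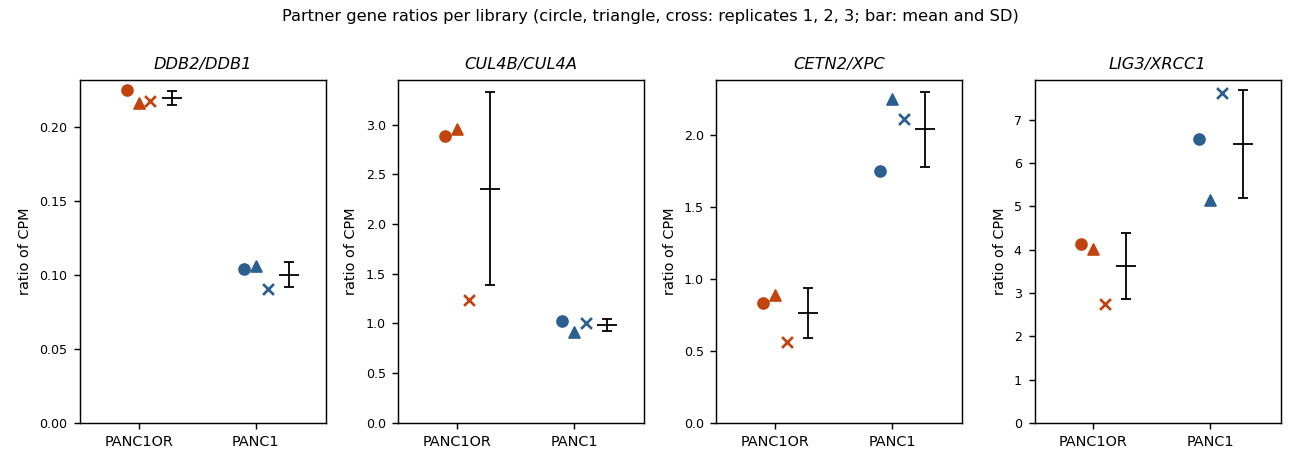
Ratios of CPM between partner genes in each library for DDB2 over DDB1, CUL4B over CUL4A, CETN2 over XPC and LIG3 over XRCC1, with PANC1OR left of PANC1 in each panel and mean and SD beside the points. The DDB2 to DDB1 ratios of PANC1OR lie between 0.216 and 0.225 and those of PANC1 between 0.0904 and 0.106.

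Of the 4 transcription-coupled recognition genes 0 passed edgeR's test and 0 passed by DESeq2, beside 17.8% and 21.7% of all tested genes. An unadjusted p under 0.05 was reached by 0 of the 4, against 5599 of all 18751 tested genes. ERCC6, the Cockayne syndrome B ATPase that binds stalled polymerase, averaged 29.7 ± 5.60 CPM in PANC1OR and 34.5 ± 2.69 CPM in PANC1 (log2 fold change -0.22 ± 0.21). ERCC8, the Cockayne syndrome A subunit of a DDB1-CUL4 ligase, was at 11.9, 12.4 and 5.45 CPM in PANC1OR against 13.9, 13.8 and 14.9 CPM in PANC1. Its PANC1OR libraries were all lower, replicate 3 most of all, and the change was -0.51 ± 0.32 (adjusted p = 0.337). UVSSA, which brings TFIIH to the stalled polymerase, averaged 55.9 ± 9.39 CPM in PANC1OR and 53.5 ± 10.4 CPM in PANC1. XAB2, an XPA-binding protein that also serves in splicing, was at 27.0, 26.3 and 62.1 CPM in PANC1OR against 24.4, 37.8 and 32.5 CPM in PANC1. PANC1OR replicate 3 was the highest of the 6 libraries, and the log2 fold change was 0.28 over 6 libraries and -0.25 without it. ERCC8 passed as lower with GC offsets (-0.66, adjusted p = 0.00432) and not without PANC1OR replicate 3 (adjusted p = 0.187).

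TFIIH had 1 of its 10 genes called, beside the same 17.8%. GTF2H5, the small subunit that stabilises the complex and is altered in a form of trichothiodystrophy, was at 21.2, 25.5 and 16.3 CPM in PANC1OR against 32.6, 41.9 and 41.7 CPM in PANC1. The lines did not overlap, and GTF2H5 (chromosome 6, 158168350 to 158199344) fell to 0.543 times its PANC1 level (-0.88 ± 0.24, adjusted p = 0.0362). Among fits without 1 library it passed without PANC1OR replicate 3 (0.00544) and without PANC1OR replicate 2 (0.046), and had 0.0722 to 0.151 without PANC1OR replicate 1 or any 1 PANC1 library. GTF2H2, the p44 subunit, was at 4.41, 3.50 and 1.07 CPM in PANC1OR against 8.72, 7.10 and 6.18 CPM in PANC1. These levels rest on few reads, 118, 56 and 13 in PANC1OR and 140, 68 and 101 in PANC1. All PANC1OR libraries were lower, but the gene did not pass with 6 libraries by the quasi-likelihood test (-1.26 ± 0.45, adjusted p = 0.0964). On the same 6 libraries it passed as lower by the likelihood ratio test (adjusted p = 0.0206), by DESeq2 (0.0304), with no filter (0.0186) and with GC offsets (0.00247), and it also passed without PANC1OR replicate 3 (-0.89, adjusted p = 0.0116). In the fits lacking one of the other 5 libraries its adjusted p was 0.0608 to 0.26. Close copies of GTF2H2 lie in the genome, and how the counting divided reads among them is uncertain. The CPM of GTF2H2, GTF2H2B and GTF2H2C summed to 12.9, 12.9 and 6.77 in PANC1OR against 22.7, 23.4 and 19.4 in PANC1, also without overlap.

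The helicase genes and the remaining core subunits overlapped between the lines. ERCC2, the XPD helicase that unwinds around the lesion, was at 14.95, 14.4 and 37.4 CPM in PANC1OR against 25.0, 32.4 and 27.0 CPM in PANC1. PANC1OR replicates 1 and 2 were below and replicate 3 above all PANC1 libraries. The change was -0.34 ± 0.38 (adjusted p = 0.617) over 6 libraries and -0.94 (adjusted p = 0.00144) without replicate 3. ERCC2 also passed as lower over 6 libraries with GC offsets (-0.43, adjusted p = 0.0227). ERCC3, the XPB translocase, averaged 62.4 ± 4.48 CPM in PANC1OR and 58.8 ± 5.59 CPM in PANC1, with a fold of 1.06 and a 95% interval of 0.80 to 1.41. The core subunits GTF2H1 and GTF2H3 had log2 fold changes of 0.06 ± 0.24 and -0.06 ± 0.21. GTF2H4 was at 1.57 CPM or less in all libraries. In GENCODE release 44, an RNA on the same strand covers 98.0% of the GTF2H4 transcript, but that RNA had no row in the count table. The GTF2H4 level is taken as uncertain, and the cause of its low value was not tested.

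In the CDK-activating kinase of TFIIH, which phosphorylates RNA polymerase and cell cycle kinases, the 3 subunits did not pass with 6 libraries. The kinase CDK7 was at 43.7, 47.3 and 28.9 CPM in PANC1OR against 33.1, 36.9 and 28.8 CPM in PANC1. The assembly factor MNAT1 was at 31.5, 35.53 and 16.8 CPM in PANC1OR against 21.0, 21.4 and 17.4 CPM in PANC1. For both genes PANC1OR replicates 1 and 2 were above all PANC1 libraries and replicate 3 was not. They passed as higher without PANC1OR replicate 3 (CDK7 at 0.46, adjusted p = 0.0233, and MNAT1 at 0.74, adjusted p = 0.00343), and neither passed with GC offsets. The cyclin CCNH was at 34.4, 35.4 and 15.4 CPM in PANC1OR against 38.2, 34.4 and 38.8 CPM in PANC1 (-0.38 ± 0.32, adjusted p = 0.48).

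**Figure D3:**
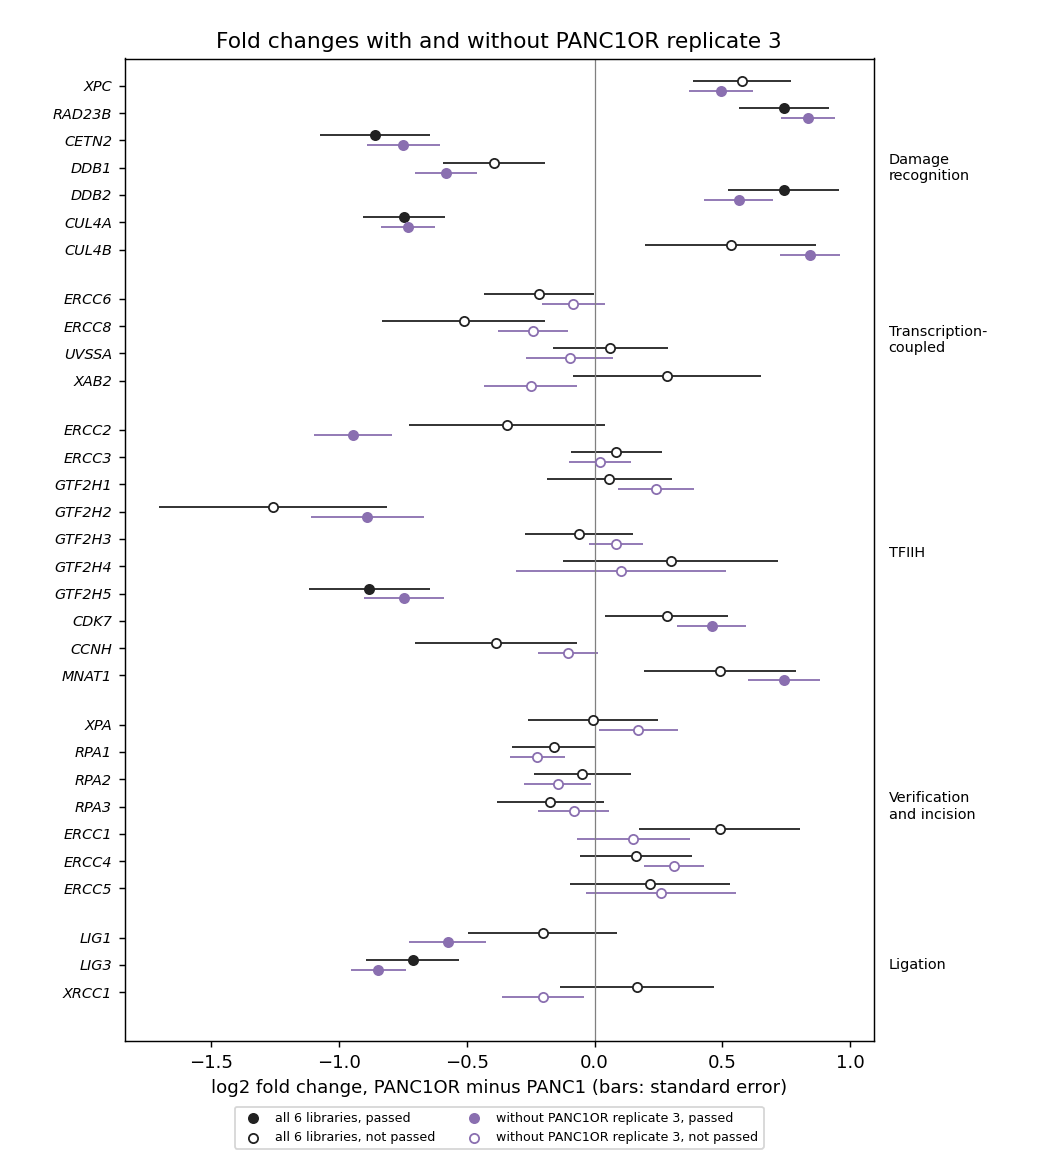
Log2 fold change, PANC1OR minus PANC1, of each of the 31 genes with its standard error, from all 6 libraries (black) and without PANC1OR replicate 3 (violet), with filled symbols for an adjusted p under 0.05. Of the genes, 6 are filled in black and 14 in violet, and the 7 damage recognition genes are all filled in violet. Of all genes tested in these fits, 17.8% and 44.1% passed.

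Verification and incision had 0 of 7 genes called by edgeR's test, 0 by DESeq2 and 0 without PANC1OR replicate 3. Of all genes tested in these fits, 17.8%, 21.7% and 44.1% passed. Of the 7, 0 had an unadjusted p under 0.05, against 5599 of all 18751 tested genes. With GC offsets ERCC1 passed. With PANC1OR replicate 3 and PANC1 replicate 2 both dropped 3 of the 7 passed, beside 58.5% of all genes tested in that fit. These were ERCC1 and ERCC4 as higher and RPA1 as lower. XPA, which binds the opened DNA beside the lesion, was at 13.8, 14.7 and 9.0 CPM in PANC1OR against 11.9, 14.4 and 11.4 CPM in PANC1. The libraries overlapped, with a fold of 0.996 and a 95% interval of 0.665 to 1.49, which leaves room for changes of either sign. The single-strand binding protein RPA coats the undamaged strand. Its large subunit RPA1 averaged 134 ± 8.60 CPM in PANC1OR and 150 ± 9.26 CPM in PANC1, with a fold of 0.895 (0.691 to 1.16). RPA2 averaged 55.7 ± 5.66 CPM in PANC1OR and 57.6 ± 7.55 CPM in PANC1, and RPA3 36.4 ± 7.36 CPM in PANC1OR and 41.0 ± 1.03 CPM in PANC1, with folds of 0.967 (0.715 to 1.31) and 0.887 (0.637 to 1.24).

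Of the nucleases, ERCC1, the partner that positions the 5′ cut, was at 72.6, 79.0 and 134.6 CPM in PANC1OR against 58.0, 93.0 and 53.03 CPM in PANC1. The highest library of each line was the one with the GC deviation, PANC1OR replicate 3 and PANC1 replicate 2, and the change was 0.49 ± 0.31 (adjusted p = 0.353). GC offsets gave an adjusted p of 0.0310, and the fit lacking PANC1OR replicate 3 gave 0.611. Exons of POLR1G on the opposite strand cover 47.1% of the ERCC1 transcript, and POLR1G was at 7.81 to 14.6 CPM in PANC1OR and 10.03 to 19.3 CPM in PANC1. ERCC4, the XPF nuclease subunit, averaged 34.9 ± 7.36 CPM in PANC1OR and 31.2 ± 1.64 CPM in PANC1, a fold of 1.12 (0.789 to 1.59). ERCC5, the XPG nuclease of the 3′ cut, averaged 2.21 ± 0.468 CPM in PANC1OR and 1.87 ± 0.478 CPM in PANC1. The read-through gene BIVM-ERCC5 shares 91.7% of the ERCC5 transcript and was listed with 0 reads in each library, so the ERCC5 level cannot be set beside that of other members.

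In the ligation step LIG3, which with XRCC1 seals the nick in quiescent and cycling cells, was at 61.1, 59.4 and 76.5 CPM in PANC1OR against 106, 103 and 113 CPM in PANC1. The lines were well apart, and LIG3 (chromosome 17, 34980512 to 35009743) fell to 0.611 times its PANC1 level (-0.71 ± 0.18, adjusted p = 0.0295). Among fits without 1 library it passed only without PANC1OR replicate 3 (-0.85, adjusted p = 0.000445), with 0.0683 to 0.146 in the fits without PANC1OR replicate 1 or 2 or any 1 PANC1 library. Exons of RFFL on the opposite strand cover 44.8% of the LIG3 transcript, and RFFL was at 40.3 to 44.7 CPM in PANC1OR and 40.9 to 41.3 CPM in PANC1. The scaffold XRCC1 averaged 19.1 ± 7.47 CPM in PANC1OR and 17.0 ± 2.64 CPM in PANC1. The ratio of LIG3 to XRCC1 was 4.13, 4.01 and 2.76 in PANC1OR against 6.57, 5.15 and 7.61 in PANC1, without overlap. LIG1, the replicative ligase, was at 32.9, 30.5 and 59.3 CPM in PANC1OR against 43.0, 55.7 and 42.4 CPM in PANC1. PANC1OR replicates 1 and 2 were below all PANC1 libraries and replicate 3 above, and LIG1 passed as lower only without that replicate (-0.57, adjusted p = 0.0146) among the fits without 1 library.

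LIG1 and RPA also serve DNA replication. Of 8 replication and proliferation genes (MCM2 to MCM7, MKI67 and TOP2A), 8 had negative log2 fold changes. Of these 1, the helicase subunit MCM4, passed (-0.53 ± 0.15, adjusted p = 0.0493), beside 7.50% of all tested genes called lower. Of the 8, 6 were called lower without PANC1OR replicate 3, 5 with GC offsets, 3 by DESeq2 and 0 by the likelihood ratio test. Beside these counts stood 22.0%, 19.6%, 9.56% and 8.49% of all genes tested in those fits. In each fit lacking one of the other 5 libraries 0 were called, beside 9.31% to 12.5% of all tested genes in either direction. In the fits lacking PANC1OR replicate 1, PANC1OR replicate 2 or PANC1 replicate 2, 7 of the 8 were negative. The 8 genes summed to 2527 to 2657 CPM in PANC1OR and 3189 to 3610 CPM in PANC1. In this sum MKI67 averaged 1198 ± 74.2 CPM in PANC1OR and 1328 ± 193 CPM in PANC1, and TOP2A 532 ± 175 and 931 ± 86.7 CPM. The lines overlapped for MCM2, MCM5, MCM6, MCM7 and MKI67, and PANC1OR was lower in all libraries for MCM3, MCM4 and TOP2A. The part of these 8 genes in the values of LIG1 and RPA was not tested.

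The 31 genes spanned a wide range of levels per transcript length. In CPM per kilobase of the canonical transcript, DDB1 and RAD23B had the highest mean levels in both lines, at 66.0 and 68.3 in PANC1OR and 86.6 and 40.9 in PANC1. DDB2 ranked 5 of 31 in PANC1OR and 12 in PANC1, while CETN2 ranked 12 in PANC1OR and 4 in PANC1, and CUL4A 14 in PANC1OR and 7 in PANC1. XPC, at 9.66 in PANC1OR and 6.48 in PANC1, stayed well under RAD23B on this scale. Apart from the uncertain GTF2H4 and ERCC5, the lowest levels were those of ERCC8, at 1.05 in PANC1OR and 1.51 in PANC1. These levels take 1 transcript length per gene and are approximate.

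**Figure D4:**
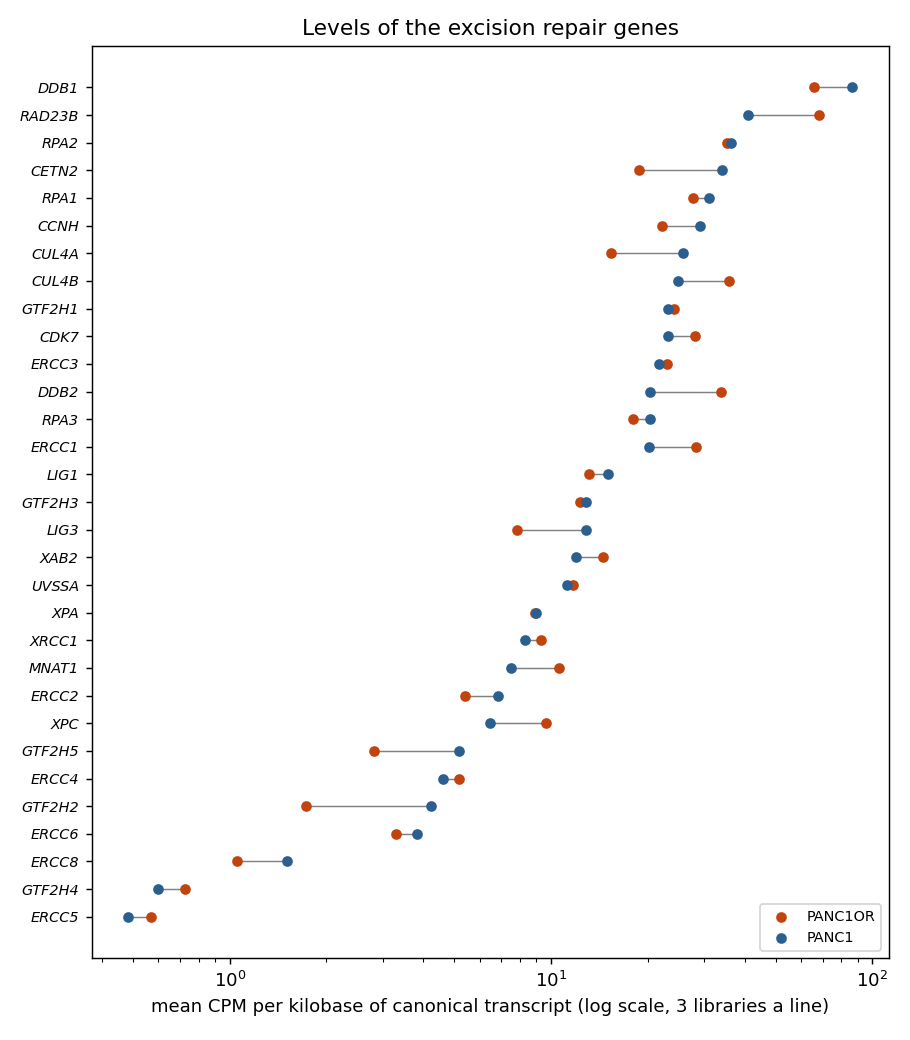
Mean level of each of the 31 genes in PANC1OR (orange) and PANC1 (blue), in CPM per kilobase of the canonical transcript on a log axis, ordered by the level in PANC1. DDB1 and RAD23B lie at the top in both lines and ERCC8 is low in both, while the points of GTF2H4 and ERCC5 are uncertain because other annotated transcripts share most of their bases.

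The deviation of PANC1OR replicate 3 followed the base composition of the members. All 15 members with under 45% GC were lower in PANC1OR replicate 3 than the mean of replicates 1 and 2, with a median log2 deviation of -0.63 where all tested genes of that class had -0.66. All 7 members with 55% GC or more were higher in it, with a median of 0.88 where all tested genes of that class had 0.97. Across the 31 genes, GC content and this deviation had Pearson's r of 0.93 and Spearman's rho of 0.94, given as a description of 1 library. Across 18638 tested genes r was 0.84. The called genes RAD23B, CETN2, CUL4A, DDB2, LIG3 and GTF2H5 had between 39.4% and 54.0% GC. For each, PANC1OR replicate 3 lay on the same side of PANC1 as replicates 1 and 2. The test that called these genes included replicate 3 and favours such agreement, which is therefore no separate evidence.

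**Figure D5:**
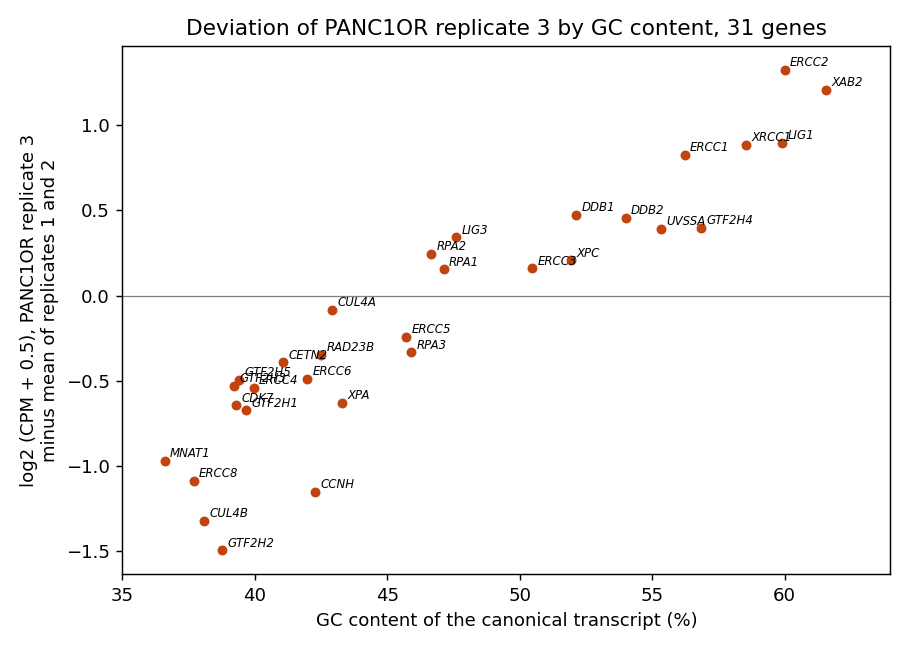
Log2 level of each of the 31 genes in PANC1OR replicate 3 minus its mean in PANC1OR replicates 1 and 2 (after adding 0.5 CPM), against the GC content of the canonical transcript in percent. The points climb from GTF2H2 at -1.49 to ERCC2 at 1.32.

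A further 35 genes were listed, of repair synthesis, of the ubiquitin and COP9 partners of the DDB ligase and of recognition. All 35 were tested, and 0 rose and 1 fell by edgeR's test (2.86%, beside 17.8% of all tested genes). By that test 4 had an unadjusted p under 0.05, as did 5599 of all 18751 tested genes. DESeq2 called 0 of the 35 higher and 2 lower, beside 12.1% and 9.56% of all tested genes. The one that fell by edgeR's test was USP7, a deubiquitinase known to counter the degradation of ERCC6, at -0.63 ± 0.18 (adjusted p = 0.0465). It passed without PANC1OR replicate 3 (0.00623), and its adjusted p reached 0.173 in the fits without another library. It did not pass with the likelihood ratio test (0.0617) or with no filter (0.0882). The 35 genes had a median log2 fold change of -0.20. Libraries did not overlap for 5 of the 35, beside 36.5% of all tested genes (17.6% with PANC1OR lower). PANC1OR was lower in each of the 5: USP7, the ring-finger partner RBX1, the COP9 protease COPS5, and the lesion-responsive factors PARP1 and CHD1L.

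Without PANC1OR replicate 3, 5 of the 35 passed as higher and 11 as lower, 45.7% in all beside 44.1% of the genes tested. In repair synthesis the polymerase subunit genes POLD1 (-1.07 ± 0.16), POLD2 (-1.26 ± 0.23) and POLE (-0.86 ± 0.13) passed as lower in that fit. The clamp loader subunit gene RFC1 (0.58 ± 0.13) and the translesion polymerase gene POLK (0.43 ± 0.14) passed as higher. With GC offsets POLD1, POLD2 and POLE also passed as lower. So did the clamp gene PCNA (-0.44 ± 0.13) and another clamp loader subunit gene, RFC3 (-0.34 ± 0.11, adjusted p = 0.0304). RFC1 (0.36 ± 0.11) and the polymerase subunit gene POLD4 (0.69 ± 0.24) passed as higher in that fit, and POLK, at -0.0055 ± 0.12, did not pass. With 6 libraries and no offsets none of these passed. The adjusted p was 0.66 for POLD1, 0.186 for POLD2, 0.15 for POLE and 0.302 for PCNA. It was 0.265 for RFC1, 0.666 for RFC3, 0.274 for POLD4 and 0.843 for POLK.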

How the data were processed

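RNA sequencing covered 3 PANC1OR and 3 PANC1 cultures, grouped by their titles. The deposited values are read counts per Ensembl gene, which the authors did not normalize. Per the submitters' processing notes and design text, they used FastQC 0.11.5 for read quality, cutadapt for adapters, STAR 2.5 for alignment on GRCh38 and featureCounts (Subread 1.6.2) for counting. No source used here states the annotation release, strand setting or handling of multi-mapped reads, so reads of overlapping or antisense genes cannot be told apart. The table had 5 further columns without values.

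Genes were filtered with filterByExpr of edgeR 4.0.16 (R 4.3.3), scaled by TMM, and PANC1OR was compared with PANC1 by the quasi-likelihood F test over 6 libraries, in place of the likelihood ratio test that the series design text names. P-values were adjusted over 18751 genes. Standard errors come from the F statistic and the 95% intervals from its degrees of freedom. Nothing in the labels says that cultures were grown independently beyond being triplicates, so p-values measure the spread between these cultures.

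Positions, transcript lengths and GC content are those of GENCODE release 44 on GRCh38 (Ensembl canonical transcript), matched by identifier. GC offsets were interpolated through the medians of 20 GC bins per library. All 31 members are named. Members were matched by symbol, with no measured value in the rule, but the members, lists and partner ratios were proposed with earlier results of these data known, and a further ratio is not reported here. The alternatives were the likelihood ratio test, DESeq2 1.42.0, RLE factors, no filter, stricter cutoffs, GC offsets, a replicate block, each library left out, and, chosen after seeing the data, a fit lacking both PANC1OR replicate 3 and PANC1 replicate 2.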

Additional observations from a re-analysis of the deposited data

How the results depend on the processing

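Over the 31 excision repair genes the count higher in PANC1OR was 2 with 6 libraries and 1 with RLE factors or no filter, 5 with GC offsets, 0 at the stricter cutoffs from the design text, 4 with the replicate block and GC offsets together, and 9 when both PANC1OR replicate 3 and PANC1 replicate 2 were dropped, an alternative chosen after seeing the data. The count lower was 4 with 6 libraries, 8 with GC offsets with or without the block, 0 with the cutoffs and 10 with both libraries left out. Of the 35 other pathway genes, 0 were higher and 1 lower with 6 libraries. With GC offsets 4 and 10 were, with the block and GC offsets 3 and 7, and with both libraries left out 8 and 13, and the count lower was 0 with the likelihood ratio test, no filter or the cutoffs and 2 with DESeq2 or RLE factors. Of the 18751 genes in the test on 6 libraries 1939 rose and 1406 fell, 17.8% in either direction. RLE factors gave 1897 and 1462 (17.9%), and no filter gave 2536 and 1745 of 37580 genes (11.4%). GC offsets gave 3820 and 3675 (40.0%), and the block with GC offsets 3344 and 3196 (34.9%). With both libraries left out the counts were 5664 and 5758 of 19517 genes (58.5%), and with the cutoffs 699 and 473 (6.25%). Leaving out 1 library gave 0 to 6 higher and 0 to 8 lower among the 31 genes. Among the 35 it gave 0 to 5 and 0 to 11. Among the whole set tested in each of these fits it gave 1103 to 4340 and 718 to 4323, or 9.31% to 44.1% in either direction. The upper end was always without PANC1OR replicate 3.

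With the replicate block, 0 of the 31 genes were called higher and 0 lower, and 0 of the 35 were called lower. Over all tested genes 1402 were higher and 922 lower with the block, 12.4% in all. Same-numbered libraries deviated together for number 1 only (r of 0.46, and -0.45 and -0.22 for numbers 2 and 3). PANC1OR replicate 3 and PANC1 replicate 2, which share the GC deviation, had an r of 0.51. These correlations therefore cannot decide whether same-numbered cultures were paired, and the labels do not say.

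Among single genes, the sign turned for genes near 0 that did not pass with 6 libraries. Without any 1 library, the log2 fold change ranged from -0.10 to 0.16 for UVSSA, -0.25 to 0.49 for XAB2, -0.071 to 0.24 for GTF2H1, -0.16 to 0.083 for GTF2H3, -0.14 to 0.17 for XPA, -0.14 to 0.056 for RPA2 and -0.20 to 0.31 for XRCC1. With both of those libraries dropped it was -0.25 for UVSSA, -0.12 for XAB2, 0.066 for GTF2H3, 0.26 for XPA and -0.090 for XRCC1. It was -0.0092 for GTF2H1 with GC offsets and 0.00064 for XPA with no filter. DDB2 lost its call with RLE factors (adjusted p = 0.0552) and with no filter (0.0581), and LIG3 with no filter (0.0547). The cause of these shifts was not tested. The standard error of the log2 fold change had a median of 0.24 over the 31 genes, and GTF2H4 and ERCC5 rested on 10 to 53 reads a library.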
